A study of Mus musculus with 4 samples.

Results

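The genes of the 3 nuclear RNA polymerases were followed in 4 RNA-seq libraries of immortalized mouse embryonic fibroblasts. They were taken by symbol: every gene starting with Polr1, Polr2, Polr3 or Gtf3, together with the RNA polymerase I (Pol I) factors Ubtf, Rrn3, Taf1a, Taf1b, Taf1c and Taf1d, the RNA polymerase III (Pol III) factors Brf1, Brf2 and Bdp1, and the Pol III repressor Maf1. This gave 45 of the 23366 genes in the table. They comprise 3 subunits found in Pol I alone, 2 shared by Pol I and Pol III, 5 shared by all 3 enzymes, 7 of RNA polymerase II (Pol II) alone, Polr2m, which associates with Pol II, 10 of Pol III alone, 6 Pol I factors, 10 Pol III factors and Maf1. Of these, 44 reached a mean of at least 1 FPKM (fragments scaled to transcript length and library total) over the 4 libraries. Taf1a is listed at 0 in all 4, which can be a failed estimate, and it is given no further value.

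Each culture gave 1 library: one carried the empty vector, and the others Myc, MycN and a protein labelled Minimal Myc, and the labels name no clone, promoter or vector type. All 4, vector included, received adenoviral Cre recombinase, an enzyme that removes DNA between its recognition sites, and were harvested after a recovery given as 48 with no unit. The series design describes the comparison as one of cells whose Myc was deleted with cells containing one of the Myc proteins. With 1 library per group there is no replicate, so no difference has a test or a replicate error. No label describes the sequence of Minimal Myc.

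Pol I transcribes the large ribosomal RNA precursor in the nucleolus, Pol II makes messenger RNA, and Pol III makes transfer RNA, the smallest ribosomal RNA and other short RNAs. Each enzyme has a pair of large catalytic subunits of its own, borrows several small subunits from a common pool, and is brought to its genes by separate factors: UBF (gene Ubtf), RRN3 and the SL1 complex of TBP with TAF1 proteins for Pol I, and TFIIIA, TFIIIC and TFIIIB for Pol III. Myc proteins are transcription factors that bind the E-box, CACGTG, with their partner Max, and growth in culture is known to draw on all 3 enzymes.

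Several measurements of the whole libraries touch these genes. Myc, the gene the design gives as deleted, stood at 22.2 FPKM in the library labelled vector, above the 4.36 of MycN and below the 32.6 of Minimal Myc and the 141.2 of Myc. One value per gene does not check a deletion of part of it, and vector below means the library so labelled. Mycn was below 1 FPKM in vector and Myc, 178 FPKM in MycN and 95.9 with Minimal Myc. Over 11640 genes tested, the median difference of log2(FPKM + 1) from vector was 0.47 with Myc, 0.42 with MycN and 0.47 with Minimal Myc. Small RNA genes made up 41.3% of all summed FPKM for vector, and 10.1% to 17.0% in the others. The part of this shift in the differences below was not tested. The steps between the lowest FPKM values gave an estimated depth of 67000000 fragments in vector, 68000000 in the Myc library, 93000000 under MycN and 88000000 under Minimal Myc. Fibroblast identity fits the label: 9 of 10 fibroblast markers reached 1 FPKM in each library, with a summed level of 1679 to 2292 FPKM, and Lum was at 0 with vector. None of 5 epithelial or 4 endothelial markers reached 1 FPKM, and their summed levels were 0.139 to 0.648 and 0.146 to 1.18 FPKM. Of 5 immune markers, Cd68 and Cd14 passed 1 FPKM in each library (summed level 9.26 to 14.9 FPKM for the list), while Cd3e was at 0 in all but Minimal Myc and Ptprc, the pan-leukocyte marker, at 0 with Minimal Myc and no higher than 0.0215 FPKM elsewhere. Adipocyte markers summed to at most 0.288 FPKM and skeletal muscle markers to at most 1.05, while of the neural markers only Tubb3 passed 1 FPKM (8.88 to 20.6). As in all bulk RNA, a change in the share of a kind of cell and a change in RNA per cell cannot be told apart.

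Promoter sequences of the members were read from RefSeq (build GRCm38.p6) because the binding motif of Myc and Max can be looked up there, and the 5 shown are genes that the results return to. The tables' own build is mm9, so these coordinates belong to the sequences alone. The table held 36 of the 45 members. CACGTG, which reads the same on both strands, occurred within the window from 250 bases before to 50 after a listed start in 6 of these 36 genes (16.7%): Gtf3c6, Polr2h, Polr3c, Polr3e, Polr3gl and Rrn3. The same window held it in 1038 of 8587 genes tested (12.1%) and in 2187 of all 27025 genes of the table (8.09%). In each sequence, written 5′ to 3′ along the gene's strand, capitals mark CACGTG. Rrn3 (chr16:13780449-13780698, + strand) has the motif at positions -215 and -48, counted from the start at 1, and is the only member window with it in 2 places. Gtf3c6 (chr10:40257713-40257962, - strand) has it at -56 from one of its starts. Polr3e (chr7:120917558-120917807, + strand) has it at position 6 of the transcript. Polr3gl (chr3:96594182-96594431, - strand) has it at -194, and its paralogue Polr3g (chr13:81711014-81711263, - strand) has no match in its window.
Rrn3: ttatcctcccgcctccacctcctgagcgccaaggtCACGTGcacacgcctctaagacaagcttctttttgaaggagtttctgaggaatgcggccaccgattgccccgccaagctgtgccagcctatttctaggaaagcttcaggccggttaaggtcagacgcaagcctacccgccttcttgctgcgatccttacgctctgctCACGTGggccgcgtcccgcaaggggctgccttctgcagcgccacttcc
Gtf3c6: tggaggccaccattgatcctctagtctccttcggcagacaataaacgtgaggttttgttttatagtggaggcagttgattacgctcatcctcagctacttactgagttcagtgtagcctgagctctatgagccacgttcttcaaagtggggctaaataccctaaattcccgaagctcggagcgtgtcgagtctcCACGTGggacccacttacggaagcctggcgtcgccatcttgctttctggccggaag
Polr3e: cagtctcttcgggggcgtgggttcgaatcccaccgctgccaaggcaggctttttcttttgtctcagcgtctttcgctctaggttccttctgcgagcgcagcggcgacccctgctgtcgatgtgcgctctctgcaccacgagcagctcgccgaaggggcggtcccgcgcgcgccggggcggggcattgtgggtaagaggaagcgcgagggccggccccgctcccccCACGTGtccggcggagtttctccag
Polr3gl: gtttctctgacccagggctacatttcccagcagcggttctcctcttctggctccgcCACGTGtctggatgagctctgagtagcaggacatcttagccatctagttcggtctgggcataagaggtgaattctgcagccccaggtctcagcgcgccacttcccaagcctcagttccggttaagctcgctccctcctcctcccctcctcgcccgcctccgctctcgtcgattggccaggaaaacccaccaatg
Polr3g: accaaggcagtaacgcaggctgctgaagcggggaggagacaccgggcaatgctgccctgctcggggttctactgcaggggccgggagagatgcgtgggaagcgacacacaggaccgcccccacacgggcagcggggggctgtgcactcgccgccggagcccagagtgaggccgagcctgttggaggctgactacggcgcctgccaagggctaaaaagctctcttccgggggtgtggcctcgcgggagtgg

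Members with and without the motif were set side by side by their difference from vector. In Myc against vector, the 6 members with CACGTG had differences of 0.43 to 1.52 (log2, median 0.94) and the 29 measured members without it 0.36 to 1.91 (median 0.84). In MycN the medians were 0.55 and 0.69, and in Minimal Myc 0.80 and 0.59. The ranges overlapped in each library, which 6 genes against 29 would likely do in any case. A match of letters is no evidence of binding, and a role of the motif was not tested. The window of Polr3e also overlaps a RefSeq transfer RNA gene, n-TLaag4, whose end lies 180 bases before the Polr3e start, so a template of Pol III adjoins the gene of a Pol III subunit. Of the 36 members this held for Polr3e alone, and of all 27025 genes for 10 (0.037%).

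By FPKM, nearly all members were lowest in vector. Vector was the lowest of the 4 libraries in 43 of 44 measured members, against 68.1% of all genes tested, and the exception was Polr2l, at 20.2 FPKM in vector and 20.1 with MycN. Members above vector by any amount numbered 44 with Myc (83.5% of all genes tested), 43 with MycN (81.8%) and 44 with Minimal Myc (83%). This direction depends on the scaling: with each library divided by its sum over the genes tested, 33 of 44 members were above vector in Myc, 37 with MycN and 22 with Minimal Myc, against 38.5%, 51.6% and 37.8% of all genes. Members at least 2-fold higher than vector, counted here and below as a difference of 1 or more in log2(FPKM + 1), numbered 13 of 44 with Myc (11.2% of all genes tested), 2 with MycN (7.65%) and 7 with Minimal Myc (13.6%). The members' share was thus 29.5% with Myc, 4.55% with MycN and 15.9% with Minimal Myc. The MycN and Minimal Myc shares lie near the background. No member was 2-fold lower, where the background was 1.56%, 1.86% and 1.68%. The median difference of the 44 members was 0.83 with Myc, 0.66 with MycN and 0.65 with Minimal Myc, or 0.36, 0.24 and 0.17 above the median of all genes tested. Centred on that median, 3, 0 and 0 members stood at least 2-fold higher, as did 218, 216 and 432 of the 11640 genes tested. The count itself depends on the scaling, with 44, 23 and 22 members past 2-fold in the authors' scaled table and 1, 0 and 0 after division by the sum over genes tested. All genes moved too: their median difference was 1.42, 0.76 and 0.80 in the scaled table and -0.12, 0.016 and -0.13 after division.

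**Figure D1:**
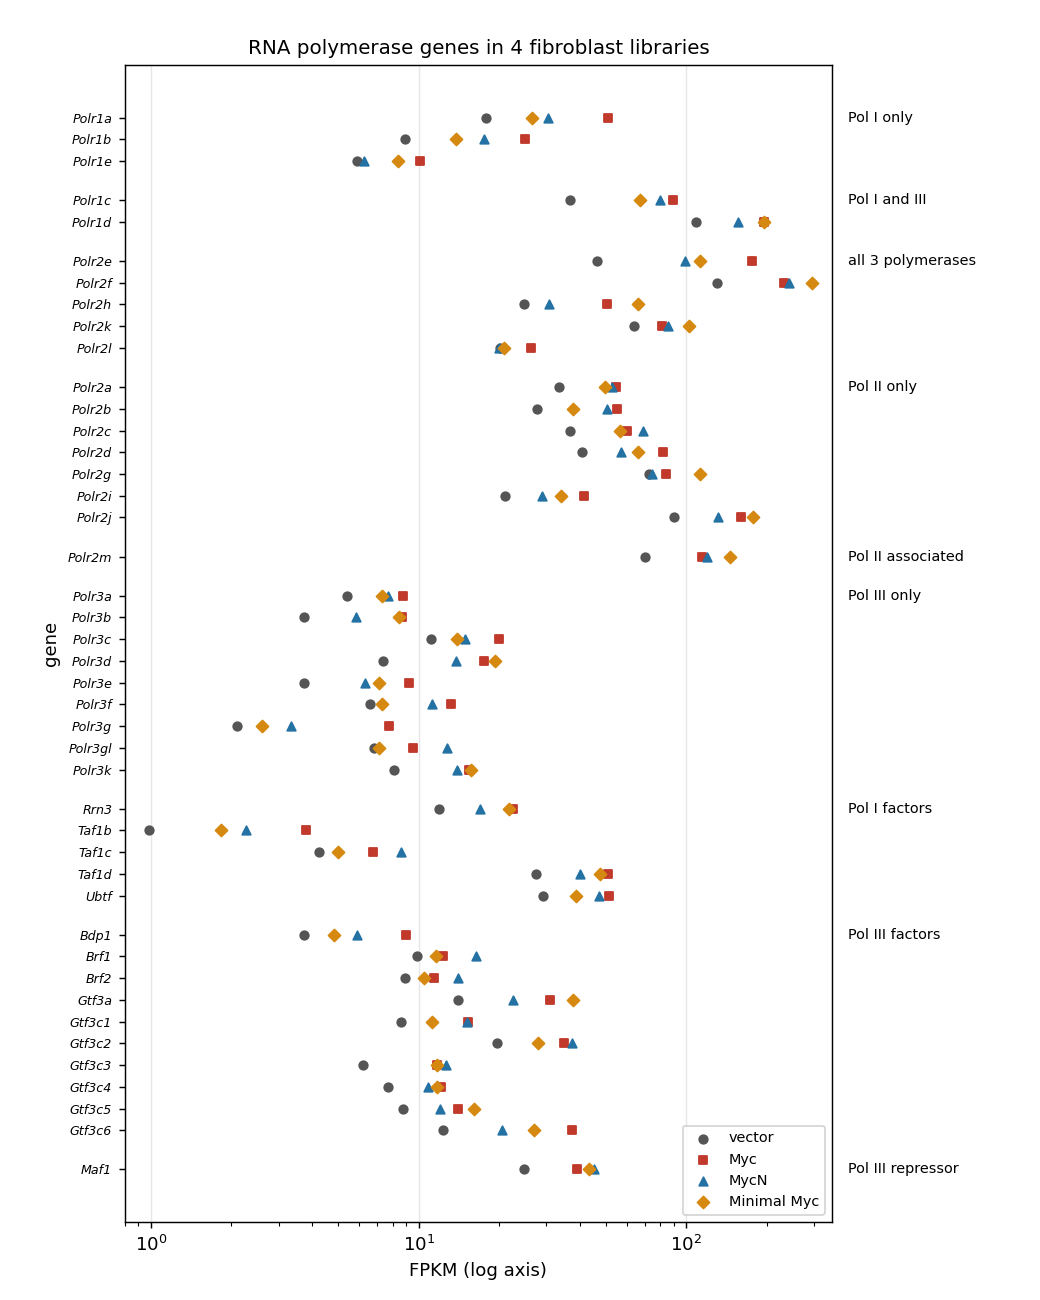
FPKM of 43 of the 44 measured polymerase genes on a log axis, 1 row per gene and 1 symbol per library, ordered by the polymerase they belong to. Vector (grey circles) is the lowest symbol in each row but that of Polr2l, and Pol III subunits, with a median of 6.70 FPKM for vector, sit to the left of Pol II subunits, at 21.0 to 89.6.

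Of the 7 groups compared by their medians, the 3 Pol I subunits were where Myc stood furthest from the other libraries. This did not hold once the Pol I subunits under older symbols, given below, were added. Single members of other groups, Polr2e, Gtf3c6 and Polr3g, stood further from vector in Myc by log2(FPKM + 1). Polr1a, the largest subunit, was 17.9 FPKM with vector, 51.0 with Myc, 30.4 with MycN and 26.6 with Minimal Myc. Polr1b, the second largest, was 8.87 FPKM with vector, 24.96 with Myc, 17.6 with MycN and 13.8 with Minimal Myc. Both were highest in Myc, with log2 differences from vector of 1.46 and 1.40 there, 0.73 and 0.91 with MycN, and 0.55 and 0.59 with Minimal Myc. Polr1e, a peripheral subunit, was 5.88 FPKM with vector, 10.1 with Myc, 6.27 with MycN and 8.42 with Minimal Myc, so it had the same highest library but lay near vector in MycN (0.08 log2). The Pol I median of 1.40 with Myc was the highest of the 7 groups, a rank that holds for these 3 subunits only.

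Other Pol I subunits go by older symbols in the table and were not among the members. Twistnb was 5.27 FPKM with vector, 12.3 with Myc, 10.6 with MycN and 9.89 with Minimal Myc. Cd3eap was 10.99, 20.96, 18.97 and 17.4 FPKM in the same order, and Znrd1, the subunit that trims the RNA end, was 33.8, 54.1, 57.1 and 54.2. Their spread among the 3 Myc proteins was narrower than that of Polr1a. With them, the median over 6 Pol I subunits was 0.98 with Myc, 0.74 with MycN and 0.60 with Minimal Myc, the first of which is below the 1.05 of the subunits shared by Pol I and III. Of the 6, Polr1a, Polr1b and Twistnb were at least 2-fold higher in Myc, beside 11.2% of all genes tested.

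Polr1c and Polr1d form the pair that seeds the assembly of both Pol I and Pol III. Polr1c was 36.8 FPKM with vector, 89.0 with Myc, 79.8 with MycN and 66.9 with Minimal Myc, and it was 1 of 2 members at least 2-fold higher in MycN (log2 1.09). Polr1d was 108.6 FPKM with vector, 195.3 with Myc, 156.4 with MycN and 194.7 with Minimal Myc. Its difference between Minimal Myc and Myc was only -0.0042 (log2), while Polr1c was 0.41 lower in Minimal Myc than in Myc.

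The 5 subunits common to all 3 enzymes did not share one pattern. Polr2e, which lies at the downstream DNA, was 46.3 FPKM with vector, 176.3 with Myc, 99.2 with MycN and 112.7 with Minimal Myc. Its log2 differences of 1.91, 1.08 and 1.27 made it the highest member in Myc, where it ranked 75 of 11640 genes, and it was the only member at least 2-fold higher in each of the 3, comparisons that share the vector library. Polr2l, by contrast, was 20.2 FPKM with vector, 26.3 with Myc, 20.1 with MycN and 20.8 with Minimal Myc, the smallest spread of any member.

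Polr2h, Polr2f and Polr2k were highest in Minimal Myc. Polr2h was 24.7 FPKM with vector, 50.5 with Myc, 30.7 with MycN and 66.1 with Minimal Myc. Polr2f was 130.02 FPKM with vector, 230.7 with Myc, 242.0 with MycN and 295.2 with Minimal Myc, the most abundant member in each library. Polr2k was 63.8, 81.3, 85.3 and 102.5 FPKM in the same order. Their group median was 1.18 (log2) in Minimal Myc, against 0.82 with Myc and 0.41 with MycN. In Minimal Myc 3 of the 5 (Polr2e, Polr2f and Polr2h) were at least 2-fold higher, beside 13.6% of all genes tested. In the authors' scaled table each of them was instead highest in Myc, as were all 44 measured members.

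In the unscaled table, 0 of 7 subunits of Pol II alone reached a difference of 1 in log2(FPKM + 1) in Myc, MycN or Minimal Myc. Over all genes tested the shares were 11.2%, 7.65% and 13.6%, so 0 of 7 lies near the background. Polr2a, the largest subunit, whose repeated tail carries the phosphorylation marks of elongation, was 33.4 FPKM with vector, 54.9 with Myc, 52.6 with MycN and 49.7 with Minimal Myc. Polr2b, the second largest, was 27.7 FPKM with vector, 55.0 with Myc, 50.4 with MycN and 37.6 with Minimal Myc. By unscaled FPKM, the Myc proteins thus differed little in Polr2a and more in Polr2b. Other measures of Polr2a differed more. Its scaled FPKM was 112.0 with Myc, 68.4 with MycN and 63.8 with Minimal Myc. By NanoString, an assay described below, its signal was 6405, 3162 and 4990 in that order. Polr2d of the stalk came closest, at 40.8 FPKM in vector and 82.1 with Myc (log2 0.99; the plain ratio of FPKM was 2.01), and was 56.9 with MycN and 65.8 with Minimal Myc. Its stalk partner Polr2g was among the lowest members in Myc and MycN, at 72.9 FPKM with vector, 84.3 with Myc and 74.7 with MycN, but was 112.6 with Minimal Myc.

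The remaining Pol II subunits lay between these. Polr2c was 36.7 FPKM with vector, 59.97 with Myc, 68.9 with MycN and 56.8 with Minimal Myc, and Polr2j, its partner in the assembly core, was 89.6, 160.5, 130.9 and 176.9. Polr2i, a zinc-binding subunit, was 21.0, 41.4, 28.8 and 34.0 FPKM. Polr2m, a protein that associates with Pol II and is not a core subunit, was 69.9, 114.4, 119.5 and 145.4 FPKM, at least 2-fold higher only in Minimal Myc (log2 1.05), though its difference between Minimal Myc and Myc was 0.34.

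**Figure D2:**
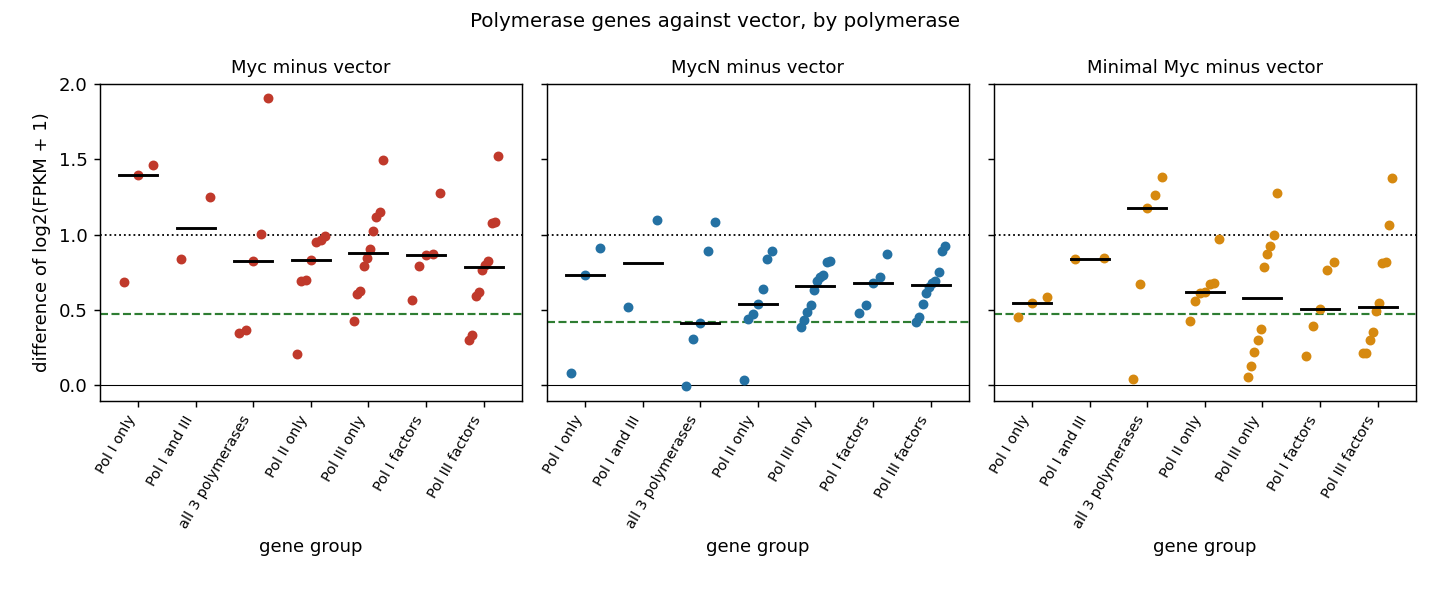
Difference of log2(FPKM + 1) from vector for each measured member but Polr2m and Maf1, by group, with 1 point per gene. A black bar marks each group median, a green dashed line the median of all 11640 genes and a dotted line 2-fold. The Pol I median is 1.40 with Myc and 0.55 with Minimal Myc, and the median of the subunits common to all 3 enzymes is 1.18 with Minimal Myc and 0.41 with MycN.

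Pol III subunits had the lowest median level of the groups in each library. That median was 6.70 FPKM with vector, and 4 of 10 were at least 2-fold higher in Myc, 0 with MycN and 1 with Minimal Myc. Beside 11.2%, 7.65% and 13.6% of all genes tested, the MycN and Minimal Myc counts lie near the background. By plain ratio of FPKM, Polr3f in Myc (2.01) and Polr3b in Minimal Myc (2.26) also passed. Polr3a, the largest subunit, was 5.40 FPKM with vector, 8.73 with Myc, 7.66 with MycN and 7.30 with Minimal Myc. Polr3b, the second largest, was 3.74 FPKM with vector, 8.65 with Myc, 5.85 with MycN and 8.45 with Minimal Myc. Polr3a therefore differed less from vector than Polr3b in Myc (0.60 against 1.02, log2) and in Minimal Myc (0.37 against 0.99), although their proteins meet in equal number in the enzyme.

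Polr3d and Polr3e, which form a subcomplex related to the Pol II factor TFIIF, both passed 2-fold in Myc. Polr3d was 7.39 FPKM with vector, 17.6 with Myc, 13.9 with MycN and 19.3 with Minimal Myc. Polr3e was 3.72, 9.24, 6.32 and 7.13 FPKM in the same order. Polr3d was highest in Minimal Myc (log2 1.27 above vector) and Polr3e in Myc (1.12). Polr3k, which is needed for RNA cleavage and termination, was also highest in Minimal Myc, at 8.11, 15.4, 13.97 and 15.7 FPKM. Crcp, a Pol III subunit that is no member by its symbol, was 15.1, 30.9, 19.4 and 30.5 FPKM.

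A further subcomplex opens the promoter and holds Polr3c, Polr3f and either Polr3g or its paralogue Polr3gl. Polr3g is known as the form of stem and tumour cells, and Polr3gl as the form found broadly. Polr3g was 2.10 FPKM with vector, 7.75 with Myc, 3.34 with MycN and 2.61 with Minimal Myc. Polr3gl was 6.80 FPKM with vector, 9.51 with Myc, 12.7 with MycN and 7.12 with Minimal Myc. Polr3g passed 2-fold above vector in Myc alone, yet it was the lowest of the 10 Pol III subunits in each library, Myc included. It was the single member at least 2-fold lower in MycN than in Myc (log2 -1.01) and in Minimal Myc than in Myc (-1.28). With a pseudocount of 5 in place of 1 it passed in neither. Polr3gl had its highest level in MycN, where Polr3g was 0.48 above vector.

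The ratio of the paralogues within a library needs no scaling between libraries. Polr3g to Polr3gl was 0.309 with vector, 0.815 with Myc, 0.262 with MycN and 0.366 with Minimal Myc, so the Myc library had 2.64 times the vector ratio and the other two 0.849 and 1.19 times. Polr3g rested on an estimated 402 fragments with vector, 1494 with Myc, 879 with MycN and 650 with Minimal Myc, which gives its log2 ratio of Myc to vector a counting error of 0.081. Counting error leaves out the variation between cultures, which 1 library per group cannot show. The trimer partners were 11.1 FPKM with vector, 19.96 with Myc, 14.9 with MycN and 13.9 with Minimal Myc for Polr3c, and 6.60, 13.2, 11.2 and 7.32 for Polr3f. In Minimal Myc, Polr3f, Polr3g, Polr3gl and Polr3c were thus among the Pol III subunits closest to vector, at 0.13, 0.22, 0.06 and 0.30 (log2), below the 0.47 of all genes.

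Among Pol I factors, the DNA-bending activator Ubtf was 29.2 FPKM with vector, 51.3 with Myc, 47.2 with MycN and 38.6 with Minimal Myc. Rrn3, which joins Pol I to its promoter and whose window holds CACGTG in 2 places, was 11.9 FPKM with vector, 22.5 with Myc, 16.9 with MycN and 21.8 with Minimal Myc. Neither passed 2-fold, with differences of 0.79 and 0.87 with Myc, 0.68 and 0.48 with MycN, and 0.39 and 0.82 with Minimal Myc. Of the SL1 subunits, Taf1b was 0.988 FPKM with vector, 3.81 with Myc, 2.27 with MycN and 1.83 with Minimal Myc. Taf1b was the 1 of 5 measured Pol I factors at least 2-fold higher in Myc (log2 1.27), beside 11.2% of all genes tested. It was the thinnest member, with an estimated 109 fragments in vector and a counting error of 0.16 on the log2 ratio of its Myc to vector fragments. Taf1c was highest in MycN, at 4.25, 6.78, 8.62 and 5.01 FPKM, and Taf1d, a gene that also hosts small nucleolar RNAs, was 27.5, 51.2, 40.2 and 47.6 FPKM. The rows of Taf1b and Taf1d carry non-coding transcript identifiers.

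TFIIIC, the 6-subunit complex that reads transfer RNA promoters, was uneven among its subunits. Gtf3c6, its smallest subunit, was 12.4 FPKM with vector, 37.3 with Myc, 20.6 with MycN and 27.0 with Minimal Myc, at least 2-fold higher in Myc (log2 1.52) and Minimal Myc (1.07). Gtf3c2 was 19.6, 35.0, 37.3 and 27.97 FPKM, and Gtf3c1, the largest subunit, 8.59, 15.3, 15.1 and 11.2. Both were about as high in MycN as in Myc, and neither passed 2-fold. Gtf3c3 was 6.20, 11.7, 12.7 and 11.7 FPKM, Gtf3c4 was 7.69, 12.1, 10.9 and 11.7, and Gtf3c5 was 8.77, 14.03, 12.1 and 16.2. The ratio of Gtf3c6 to Gtf3c2 was 0.629 with vector, 1.07 with Myc, 0.552 with MycN and 0.964 with Minimal Myc.

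Gtf3a, the TFIIIA gene that serves the smallest ribosomal RNA, was 13.996 FPKM with vector, 30.8 with Myc, 22.6 with MycN and 37.9 with Minimal Myc, at least 2-fold higher in Myc (log2 1.09) and Minimal Myc (1.37). In TFIIIB, Bdp1 was 3.73 FPKM with vector, 8.96 with Myc, 5.87 with MycN and 4.82 with Minimal Myc, past 2-fold in Myc (1.08). Its partner Brf1, used at transfer RNA genes, was 9.84, 12.3, 16.4 and 11.6 FPKM, and Brf2, used at promoters outside the gene, was 8.87, 11.4, 14.1 and 10.5. Both Brf genes were among the lowest members in Myc, at 0.30 and 0.33 (log2), below the 0.47 of all genes, and both were highest in MycN. Brf1 to Brf2 was nearly the same in each library, from 1.08 to 1.16. Maf1, which restrains Pol III when it is not phosphorylated, was 24.9 FPKM with vector, 39.0 with Myc, 45.2 with MycN and 43.3 with Minimal Myc.

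Set against Pol II within each library, where scaling cancels, the Pol I catalytic subunits were highest in Myc. Polr1a to Polr2a was 0.536 with vector, 0.930 with Myc, 0.577 with MycN and 0.536 with Minimal Myc. Polr1b to Polr2b was 0.320, 0.454, 0.348 and 0.367 in the same order. In both pairs Myc was the highest library, at 1.74 and 1.42 times the vector ratio, while MycN was at 1.08 and 1.09 times and Minimal Myc at 1.001 and 1.15 times. Polr3a to Polr2a, in contrast, was 0.162 with vector, 0.159 with Myc, 0.146 with MycN and 0.147 with Minimal Myc. Polr3b to Polr2b was 0.135, 0.157, 0.116 and 0.224, so the 2 pairs for Pol III did not give the same order. Polr1a to Polr3a was 3.32 with vector, 5.84 with Myc, 3.96 with MycN and 3.65 with Minimal Myc. Polr1b to Polr3b was 2.37, 2.89, 3.002 and 1.64, so that MycN was highest and Minimal Myc was at 0.691 times vector. Pol I against Pol III therefore had no common order over the pairs.

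Over whole groups the gap was smaller. The geometric mean of the 3 Pol I subunits relative to that of the 7 Pol II subunits was 0.239 with vector, 0.334 with Myc, 0.248 with MycN and 0.225 with Minimal Myc, which puts Myc at 1.40 times vector. With Twistnb, Cd3eap and Znrd1 added it was 0.271, 0.338, 0.304 and 0.271, or 1.25 times vector in Myc. For the 10 Pol III subunits it was 0.145, 0.172, 0.161 and 0.146, or 1.19, 1.11 and 1.007 times vector, and for the 10 Pol III factors 1.06, 1.12 and 1.006 times. The size of the Pol I difference in Myc therefore rested mainly on Polr1a and Polr1b.

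**Figure D3:**
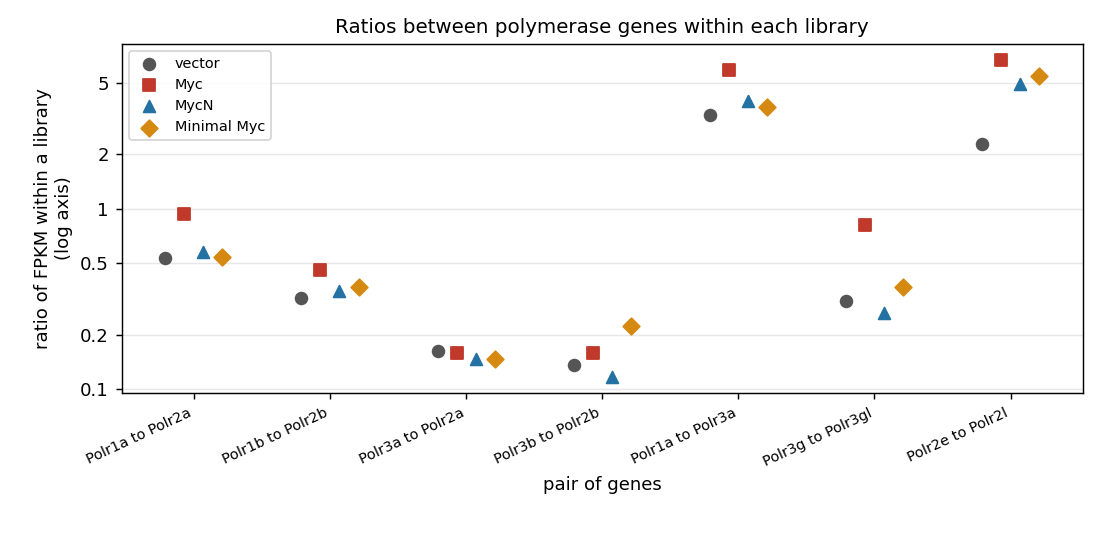
Ratio of FPKM between pairs of polymerase genes within each library, on a log axis, with 1 symbol per library. Myc is highest for Polr1a to Polr2a (0.930 against 0.536 with vector) and for Polr3g to Polr3gl (0.815 against 0.309), while Polr3a to Polr2a spans only 0.146 to 0.162.

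Polr1b and Polr2a were also read by NanoString, a hybridization count of RNA molecules with a normalization not stated in the files or labels. Polr1b had a signal of 503.5 with vector, 1183 with Myc, 851.6 with MycN and 591.0 with Minimal Myc, which gave the same order of the 4 libraries as its FPKM. Its ratios to vector were 2.35, 1.69 and 1.17 by NanoString, against 2.81, 1.98 and 1.56 by FPKM. Polr2a had a signal of 3561 with vector, 6405 with Myc, 3162 with MycN and 4990 with Minimal Myc. In MycN it was 0.888 times vector by NanoString but 1.57 times by FPKM, so the assays gave opposite directions there, while in Myc (1.80 and 1.64) and Minimal Myc (1.40 and 1.49) they were close. Among 30 NanoString genes Polr1b ranked 7, 5 and 20 from the highest ratio in Myc, MycN and Minimal Myc, and Polr2a 20, 26 and 10. Polr1b to Polr2a by NanoString was 0.141 with vector, 0.185 with Myc, 0.269 with MycN and 0.118 with Minimal Myc, highest in MycN, whereas by FPKM it was 0.265, 0.455, 0.334 and 0.278, highest in Myc. Which library had the most Pol I relative to Pol II transcript thus depended on the assay for this pair.

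**Figure D4:**
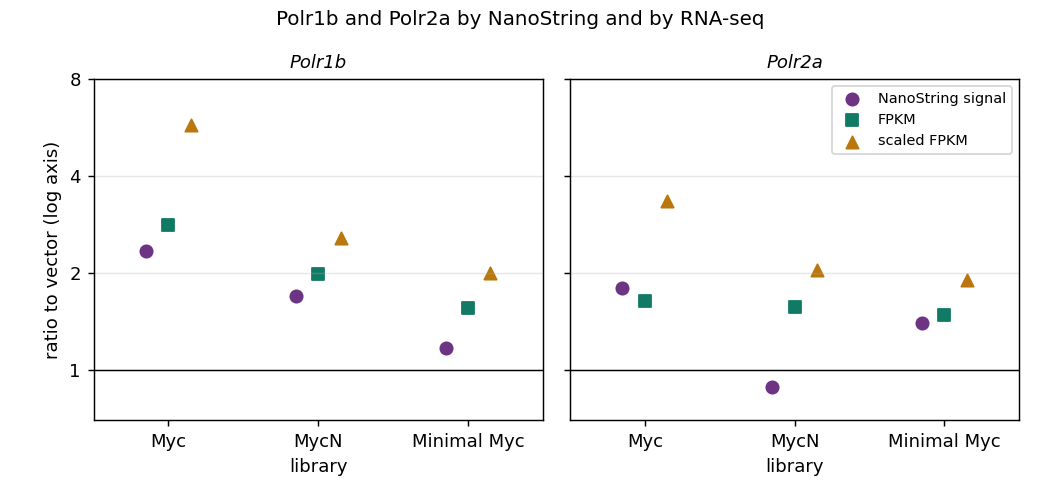
Ratio to vector of Polr1b and Polr2a in 3 libraries on a log axis, by NanoString, by FPKM and by the authors' scaled FPKM. Polr1b decreases from Myc to Minimal Myc by each measure, and Polr2a in MycN lies at 0.888 by NanoString and 1.57 by FPKM.

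Directly between the Myc proteins, Myc had the highest FPKM in 25 of 44 members (29.6% of all genes tested), MycN in 8 (29%) and Minimal Myc in 11 (35.8%). This order depends on the scaling: in the authors' scaled table Myc was highest in 44 of 44 (83.6% of all genes), and after division by the sum over genes tested Myc and MycN were each highest in 17 (14.9% and 34.4%). MycN's 8 were Brf1, Brf2, Gtf3c2, Gtf3c3, Maf1, Polr2c, Polr3gl and Taf1c. In MycN against Myc, Polr3g was at least 2-fold lower (1 of 44, with 2.74% of all genes) and 0 members were 2-fold higher (1.95%). In Minimal Myc against Myc, Polr3g was again the 1 lower member (2.16%) and 0 were higher (4.48%). In Minimal Myc against MycN, Polr2h was the 1 member 2-fold higher (log2 1.08, with 6.94% of all genes) and 0 were lower (3.69%), a call lost with a pseudocount of 5 or after division by the sum over genes tested. The member median was -0.21 with MycN against Myc, where all genes had -0.06, and -0.19 with Minimal Myc against Myc, where all genes had -0.03. For the 3 Pol I subunits it was -0.61 and -0.81. Over 6 Pol I subunits, with those under older symbols, it was -0.34 and -0.27, beside -0.34 and -0.37 for the Pol I factors.

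Other genes of the pathway were counted against the same background, which was 11.2% of all genes tested at least 2-fold above vector for Myc, 7.65% under MycN and 13.6% under Minimal Myc. Of 12 genes that assemble or import polymerases, 4 were at least 2-fold higher in Myc, 0 with MycN and 3 with Minimal Myc. Their medians were 0.80, 0.73 and 0.69 (log2), beside 0.47, 0.42 and 0.47 over all genes, and Pih1d1 in MycN was the one value below vector (-0.01). Ruvbl1, an ATPase of the chaperone complex that loads polymerase subunits, was 29.8 FPKM with vector, 84.7 with Myc, 59.2 with MycN and 69.0 with Minimal Myc, and its partner Ruvbl2 was 33.6, 91.98, 57.7 and 50.7. Gpn3, a GTPase of Pol II import, was 19.1, 45.3, 35.3 and 40.6 FPKM. Of 5 Pol I chromatin and nucleolar genes, 3 were at least 2-fold higher in Myc (Baz2a, Nop14 and Pwp1), 1 with MycN and 0 with Minimal Myc. Baz2a, part of a complex that silences ribosomal genes, was 4.53 FPKM with vector, 12.2 with Myc, 11.5 with MycN and 7.61 with Minimal Myc, so it too was highest in Myc. Of 8 genes of TBP, SNAPc and their activators, 1 was 2-fold higher in each library, Snapc5, at 3.99, 13.2, 9.09 and 12.8 FPKM. TBP itself, which all 3 enzymes use, was 17.9 FPKM with vector, 28.01 with Myc, 32.4 with MycN and 22.9 with Minimal Myc.

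RNA products of Pol I and Pol III cannot be read from these libraries as output, since they were enriched for poly(A) tails that these RNAs mostly lack. Rpph1, the Pol III transcript of RNase P, was 55.9 FPKM with vector, 12.2 with Myc, 35.6 with MycN and 11.6 with Minimal Myc. Rmrp had the same order of vector, MycN and Myc, at 117.6, 57.7 and 22.5 FPKM, and at 14.9 in Minimal Myc. The short vault RNA Vaultrc5 was 2.38 FPKM in vector and between 0.393 and 0.818 in the others. Rn45s, the ribosomal precursor made by Pol I, did not follow them: it is listed at 0 in vector and MycN, at 995.4 FPKM in Myc and at 1059 in Minimal Myc. As with Taf1a, a listed 0 can be a failed estimate, so no difference is read from Rn45s. Of 6 Pol III transcript handling genes, 0 were 2-fold higher in Myc or MycN and 2 were in Minimal Myc, where the background was 11.2%, 7.65% and 13.6%. Ssb, the La protein that binds the ends of new Pol III transcripts, was 68.4 FPKM with vector, 133.2 with Myc, 92.5 with MycN and 140.0 with Minimal Myc.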

How the data were processed

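RNA-seq of 4 libraries, 1 per group, was analysed from 2 tables. The authors deposited FPKM per library, and a second table with those FPKM multiplied by 1 factor per library (Myc 2.04, MycN 1.30, Minimal Myc 1.28). The build mm9, Cufflinks 2.2.0 and TopHat2 2.0.11 are named, without their roles, per the submitters' processing notes. Per the labels' protocols, libraries were poly(A)-selected and strand-keeping, and ERCC spike-ins were added by cell number; the tables hold 0 rows of them. Of 26608 rows, 32 are NanoString.

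Identical rows under 1 symbol were merged and differing rows summed (0 members had differing rows). The filter was a mean of 1 FPKM or more, applied without 310 small RNA genes, and 11640 genes passed. Differences are of log2(FPKM + 1), a scale that understates low genes, and counts are at 2-fold. No test was run, as each group has 1 library. Depth was estimated from the steps of FPKM times transcript length (GENCODE) among low genes. At the chosen depth, 66.6% to 67.8% of values lay within 0.1 of a whole fragment, where 20% would by even spread. The depth and a length offset were those that best fitted these same genes, so this share is no separate check. Transcript lengths were found for 43 of 44 measured members, whose fragments ran from 109 to 10817 with vector. Counting errors cover counting only, since molecules were not tagged. Python 3.11.15, pandas 2.3.3 and numpy 2.4.6 were used, and the calculations were tested on simulated data. Named genes followed a rule that takes catalytic subunits, paralogues, factors and the 5 highest and lowest members per comparison; the groups by enzyme follow textbook composition. One member is counted in its groups but not reported here by itself. Members and lists were chosen with earlier results of these data known. Alternatives were the scaled table, pseudocounts of 0.1 and 5, centring, division by the sum over genes tested, no filter, a mean of 5 FPKM, and the highest row of a gene.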

Additional observations from a re-analysis of the deposited data

How the results depend on the processing

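No paired analysis was possible because each group has 1 library, and for the same reason no library could be left out. Group medians that shifted by over 1.5-fold and counts that moved by over 1.5 times are given here. All other medians and counts in the 6 comparisons stayed within those limits, and no single member that was 2-fold different changed direction under any of the 8 alternatives.

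In the authors' scaled table, members at least 2-fold above vector numbered 44 with Myc, 23 with MycN and 22 with Minimal Myc, and 17 and 14 were 2-fold lower than Myc in MycN and Minimal Myc. Over all genes tested, the median difference from vector in that table was 1.42, 0.76 and 0.80. Its medians for Myc against vector were 1.84 over all members, 2.40 for Pol I alone, 2.07 for Pol I and III, 1.85 for the common subunits, 1.86 for Pol II alone, 1.86 for Pol III alone, 1.87 for Pol I factors and 1.77 for Pol III factors. For MycN against Myc they were, in that order, -0.83, -1.24, -0.89, -1.01, -0.82, -0.90, -0.98 and -0.70, and for Minimal Myc against Myc -0.83, -1.47, -0.87, -0.33, -0.80, -0.91, -0.996 and -0.74. The common subunits, above Myc in Minimal Myc in the unscaled table (0.33), were thus below it.

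Divided by the sum over genes tested, members 2-fold above vector numbered 1 with Myc, 0 with MycN and 0 with Minimal Myc. Medians for Myc against vector were then 0.17, 0.77, 0.38, 0.15, 0.16, 0.26, 0.21 and 0.15. For Minimal Myc against vector they were -0.0009 over all members, -0.11 for Pol I alone, 0.16 for Pol I and III, 0.49 for the common subunits, -0.058 for Pol II alone and -0.12 for Pol III factors. No member was 2-fold lower in MycN than in Myc, or 2-fold higher in Minimal Myc than in MycN (0 each). Centred on the median of all genes, the counts above vector were 3, 0 and 0, beside 218, 216 and 432 of 11640 genes tested. So centred, 0 members were 2-fold lower in MycN than in Myc. 

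With a pseudocount of 0.1, 5 members were 2-fold above vector in MycN and 2 were 2-fold lower in Minimal Myc than in Myc. With a pseudocount of 5, 5 members were 2-fold above vector in Myc, as many as in Minimal Myc (5), and 0 passed 2-fold between any Myc proteins. At a mean of at least 5 FPKM, which removes Polr3g, 0 were 2-fold lower than Myc in MycN or Minimal Myc. Without a filter Taf1a, at 0 throughout, still gave no value. Estimated depth put the counting error of a member's log2 ratio to vector at 0.016 to 0.16, and the spread between cultures was not measured.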

Other observations

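The mitochondrial transcription genes, which serve a separate single-subunit polymerase, were above vector in each library, as were 81.8% to 83.5% of all genes tested. Polrmt, that polymerase, was 5.46 FPKM with vector, 11.9 with Myc, 9.51 with MycN and 7.95 with Minimal Myc. Tfam, which packages mitochondrial DNA and opens its promoters, was 6.02 FPKM with vector, 14.4 with Myc, 11.03 with MycN and 13.2 with Minimal Myc. Of 5 such genes, 1 was at least 2-fold higher in Myc, 0 with MycN and 1 with Minimal Myc, beside 11.2%, 7.65% and 13.6% of all genes. Enzymes that act on the Pol II tail were nearer to all genes, with a median over 10 genes of 0.54 (log2) in Myc, 0.63 with MycN and 0.50 with Minimal Myc. Cdk9, the elongation kinase, was 16.3 FPKM with vector, 20.9 with Myc, 30.7 with MycN and 26.6 with Minimal Myc, and its cyclins Ccnt1 (12.2, 15.1, 18.9 and 12.3) and Ccnt2 (7.93, 11.5, 17.1 and 10.4) were also highest in MycN. Ssu72, a tail phosphatase, was 21.1, 45.1, 35.8 and 39.2 FPKM.

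The genes whose 4-library pattern was most like that of Polr1b, by Pearson's r of log2(FPKM + 1) over 4 libraries and among 3293 genes that spanned at least 2-fold (predicted genes without a proper symbol left out), were Nolc1, Slc16a1, Cep57l1, Mgme1 and Bms1, each at r of 0.999 or above. Nolc1, a nucleolar phosphoprotein, was 38.1 FPKM with vector, 104.8 with Myc, 73.5 with MycN and 59.4 with Minimal Myc, and Bms1, a GTPase of ribosome assembly, was 18.1, 39.0, 30.03 and 25.8. With 4 points such values are easily reached: 55 genes had r of at least 0.99.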
